A study of Rattus norvegicus with 6 samples.

Results

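The 38 genes described here encode the folding machinery of the endoplasmic reticulum (ER) and the sensors, transcription factors and targets of the unfolded protein response. They were chosen by name for their roles, with earlier results of these data known, and comprised 7 lumenal chaperones and co-chaperones, 2 secreted stress-induced proteins, 2 lectin chaperones, 7 thiol oxidoreductases and 2 prolyl isomerases. The others were 6 sensors and transcription factors, and 5 targets of ATF4 and CHOP or subunits of the eIF2 phosphatase. There were also 4 components of ER-associated degradation, 2 of the translocon, and wolframin. All 38 were found on the array, with 49 probes, among 20177 genes with a symbol and 45598 non-control probes. Each gene was represented by 1 probe, the one with the highest mean over the 6 arrays.

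Expression was compared between replicating (EdU+) and quiescent (EdU-) β-cells of young adult male Wistar rats. Islets were cultured overnight with the thymidine analogue EdU, so cells of both groups had been exposed to it. They were then dispersed, loaded with the zinc dye Newport Green, fixed with paraformaldehyde, permeabilised and sorted on size, granularity, green fluorescence and EdU signal. Each of 3 islet preparations, pooled from 4 rats, gave 1 replicating and 1 quiescent sample, hence 6 one-colour arrays, and the RNA was amplified before labelling. Ratios are given as log2 of replicating over quiescent cells. Array 1, 2 or 3 of a group is the replicate of that number, taken as the array from that preparation. These are sorted populations measured in bulk, in which fewer cells of a type and less RNA per cell cannot be told apart.

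Proteins destined for secretion enter the ER through the translocon, are folded there by chaperones and disulfide-forming enzymes, and are exported for degradation when folding fails. When unfolded protein accumulates, the transmembrane sensors ATF6, IRE1 (Ern1) and PERK (Eif2ak3) are activated: ATF6 and spliced XBP1 raise transcription of chaperones and degradation components, whereas PERK phosphorylates eIF2, which slows translation and favours ATF4. β-cells carry a heavy folding load because of proinsulin, and loss of PERK or of wolframin causes diabetes in humans.

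The best known cis element of this response is the ER stress response element (ERSE, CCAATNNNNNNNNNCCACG), and its letters were searched on both strands in the RefSeq promoter windows of assembly GRCr8, from 250 bases before to 50 bases after each annotated start. A window was found for 32 of the 38 genes, and there was none in the table for Manf, Pdia3, Pdia6, Ero1l, Atf6 and Ern1. ERSE was present in 8 of the 32 (25%), against 21 of 27457 genes with a promoter window (0.0765%). Those of 7 genes are shown with 10 flanking bases on each side, because they mark the genes for which the chaperone branch of the response has a textbook element. The capitals mark the match, on whichever strand it lies, and Hsp90b1 held 2.
Hspa5, chr3:38452963-38453001, plus strand: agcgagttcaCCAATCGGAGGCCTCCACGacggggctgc
Hsp90b1, chr7:23012337-23012479, minus strand: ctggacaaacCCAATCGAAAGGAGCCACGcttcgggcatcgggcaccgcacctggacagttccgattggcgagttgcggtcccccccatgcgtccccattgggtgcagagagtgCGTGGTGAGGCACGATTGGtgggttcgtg
Dnajc3, chr15:102432524-102432562, plus strand: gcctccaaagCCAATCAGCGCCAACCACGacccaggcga
Creld2, chr7:121789229-121789267, plus strand: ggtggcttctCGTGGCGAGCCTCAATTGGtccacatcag
Calr, chr19:40213125-40213163, plus strand: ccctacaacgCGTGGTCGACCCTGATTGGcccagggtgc
Ero1lb, chr17:92941448-92941486, plus strand: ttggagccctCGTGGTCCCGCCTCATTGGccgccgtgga
Xbp1, chr14:84604548-84604586, plus strand: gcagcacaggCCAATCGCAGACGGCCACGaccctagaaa

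A second set of elements lay in other members. ERSE-II (ATTGGNCCACG) occurred in 3 of the 32 windows (9.38%), those of Hyou1, Dnajb11 and Herpud1, against 17 of 27457 (0.0619%). The ATF4 element TGATGNAA occurred in 4 (12.5%), those of Herpud1, Trib3, Chac1 and Ppp1r15b, against 1141 of 27457 (4.16%). The core of the XBP1 element, TGACGTGG, occurred in 1 window (3.12%), that of Hyou1, where it overlapped an ERSE-II match, against 187 of 27457 (0.681%). The Herpud1 window is shown from its ATF4 element to its ERSE-II match, since it held both, and the other ATF4 matches are shown with 10 flanking bases and the match in capitals. A match of letters is a description and was not taken as a bound site.
Herpud1, chr19:10614811-10614901, minus strand: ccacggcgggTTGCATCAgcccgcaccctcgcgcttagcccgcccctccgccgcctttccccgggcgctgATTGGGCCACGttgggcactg
Trib3, chr3:161275537-161275564, minus strand: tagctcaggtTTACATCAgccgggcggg
Chac1, chr3:126795954-126795981, plus strand: ttctccgccgTTGCATCActcctgctag
Ppp1r15b, chr13:47129812-47129839, plus strand: taggtccggcTGATGCAActtgccgcgt

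**Figure D1:**
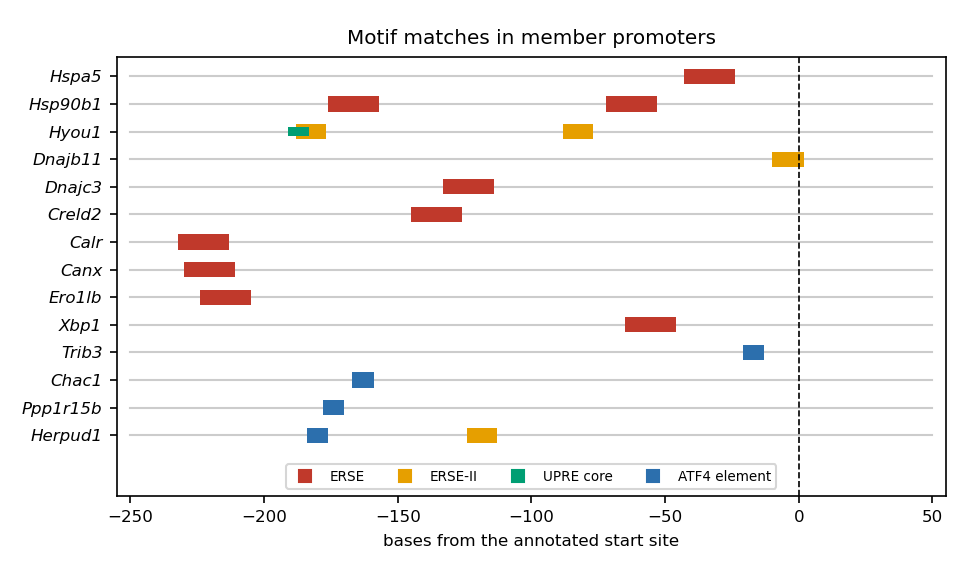
Position of each motif match (coloured boxes, either strand) in the promoter windows of the 14 members that held one, in bases from the annotated start site (dashed line at 0). ERSE matches of the chaperone genes lie upstream of the start site, between -232 in Calr and -25 in Hspa5.

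The genes with an ERSE had a median log2 ratio of 0.66 (range -0.42 to 0.98), and 0 of 8 passed the selection given next. The 21 members with a window but neither ERSE nor ERSE-II had a median of 0.55, and 2 of them, P4hb and Sel1l, passed. These medians were not tested against each other.

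Expression of the ER genes was higher in replicating than in quiescent β-cells for 31 of 38 members (81.6%, against 47.8% of all genes). Most of these differences did not pass the selection described below. The number of members with a ratio above 0 was 21 without preparation 2 and 24 with cyclic loess normalization. Without the quiescent array of preparation 2 alone it was 20. The study used a limma fit paired by islet preparation. Among its criteria was an unadjusted p not above 0.05 together with a log2 ratio of 1 or more in either direction, which was used here. By this selection 4 of 38 members rose (10.5%), and 0 fell. The same selection was passed upwards by 5.31% and downwards by 3.11% of 20177 genes, and by 4.44% and 4.18% of the 45598 probes. The numbers that the study reported by these criteria were larger in both directions. The 4 were Sel1l, P4hb, Pdia6 and Pdia3, that is, 1 component of ER-associated degradation and 3 disulfide isomerases. After Benjamini-Hochberg adjustment over all probes 0 members passed in limma (smallest adjusted p 0.475, with 4 members at an unadjusted p under 0.05), nor did any probe of the array (0%, with 4379 at an unadjusted p under 0.05). The median log2 ratio of the members was 0.52 (quartiles 0.07 and 0.82, range -0.62 to 1.90), against -0.04 over all genes.

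The size of the difference depended on the preparation. The median log2 ratio of the members was 0.30 in preparation 1, 1.27 in preparation 2 and -0.11 in preparation 3, while that of all genes was 0.04, 0.01 and -0.05. The spread of all genes differed by preparation too. Their 5th and 95th percentiles were -1.54 and 1.42, -2.81 and 2.86, and -0.80 and 0.81. Ratios were above 0 for 26 of 38 members in preparation 1, for 33 of 36 in preparation 2 and for 16 of 38 in preparation 3. All 3 ratios were above 0 in 12 of 38 members (31.6%, against 16.4% of all genes), and below 0 in Xbp1 alone (against 19.3%). In 10 members (26.3%) the lowest replicating array was above the highest quiescent array, as it was in 10.2% of all genes, and in 0 members was the order the opposite (6.63%).

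**Figure D2:**
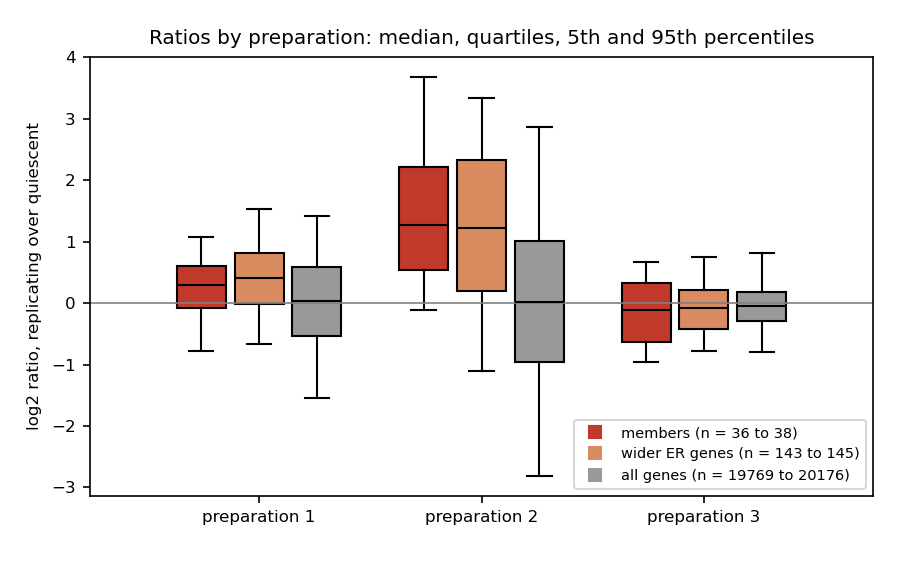
Log2 ratio of replicating over quiescent cells within each islet preparation (boxes with median and quartiles, whiskers at the 5th and 95th percentiles) for the members, the wider ER genes and all genes. The members' box lies highest in preparation 2 (median 1.27) and around 0 in preparation 3 (median -0.11).

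The quiescent arrays differed more among themselves than the replicating arrays, whose r was 0.967 to 0.986. Quiescent array 2 had an r of 0.83 with array 1 and 0.654 with array 3, and arrays 1 and 3 had 0.868. With the replicating arrays, quiescent array 3 had an r of 0.943 to 0.969. Quiescent array 1 had 0.869 to 0.887 with them, and quiescent array 2 had 0.672 to 0.709. Spots marked as outliers numbered 1583 on quiescent array 2 and 252 to 299 on the others. The members were low on array 2: 22 of 36 (61.1%) lay at least 1 log2 unit under the mean of the other 2 quiescent arrays, against 21.6% of 19767 genes, with medians of -1.29 and -0.04. It was the lowest of the 6 arrays for 27 of 36 members (75%) and for 36.7% of all genes. When both arrays of preparation 2 were left out, the median of the members was 0.04 and 0 passed in limma in either direction (0 at an unadjusted p under 0.05). In that fit 3.17% of all probes passed upwards. When that quiescent array alone was left out and the block dropped, a comparison chosen after seeing the data, the median was 0.05. Again 0 members passed, against 3.07% of all probes upwards. In that comparison 6 members had an unadjusted p under 0.05 in limma, namely Pdia6 (0.96), Sel1l (0.93), Pdia4 (0.74) and Fkbp2 (0.66) above 0, and Hspa5 (-0.98) and Sdf2l1 (-0.85) below 0. Ratios of each preparation are therefore given beside the fitted ratio for most members.

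**Figure D3:**
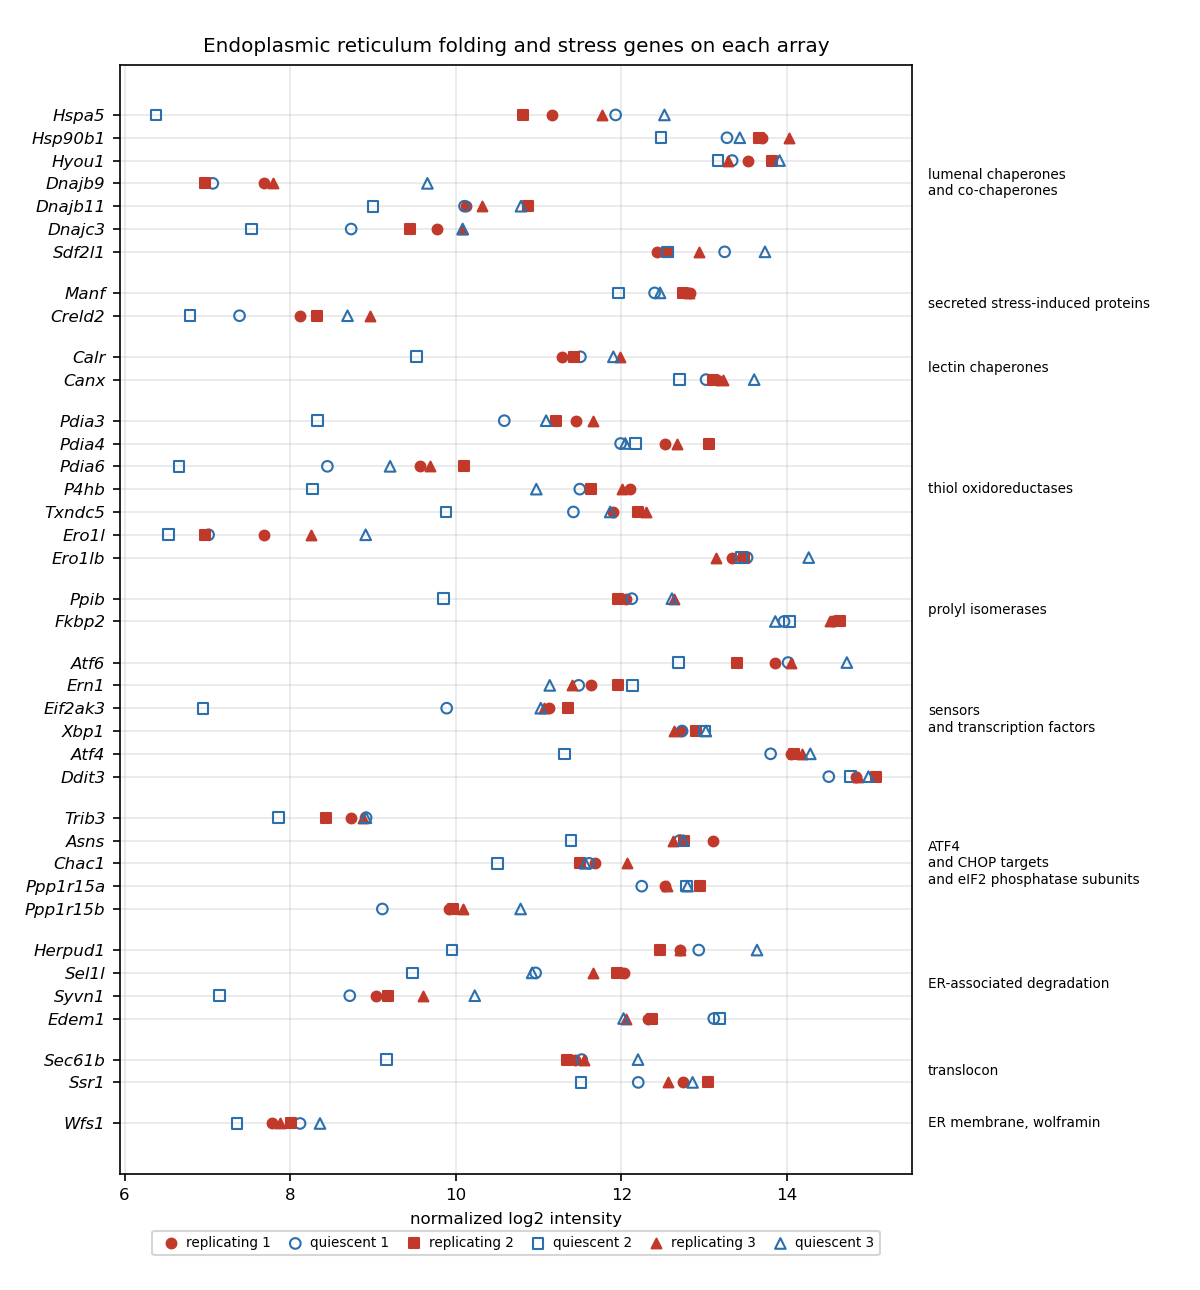
Normalized log2 intensity of the 38 members on each of the 6 arrays, 1 row per gene, grouped by role (filled symbols, replicating; open symbols, quiescent; the shape gives the preparation). The open square, quiescent array 2, is the leftmost symbol for most chaperones and oxidoreductases, and levels of different genes are not comparable.

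Among the thiol oxidoreductases 3 of 7 rose (against 5.31% of all genes), and 0 of 7 passed without preparation 2 (against 3.17% of all probes upwards in that fit). In 5 of 7 all 3 preparations had a ratio above 0 (against 16.4%), and in 5 of 7 the groups did not overlap (against 10.2%). Over the 7 genes the log2 ratio had a median of 1.08 (0.61 in preparation 1, 2.32 in preparation 2 and 0.48 in preparation 3). P4hb encodes protein disulfide isomerase, which forms and rearranges disulfide bonds in proinsulin among other clients. Its log2 intensity was 12.11, 11.63 and 12.01 on the replicating arrays and 11.50, 8.27 and 10.97 on the quiescent arrays (probe at chr10:109950731-109950790 of rn4, minus strand). Every replicating array lay above every quiescent one, and quiescent array 2 was the lowest by far. P4hb rose by 1.67 ± 0.61 (log2 ratio ± SE moderated by limma, as for every fitted ratio here, limma adjusted p 0.475), a 3.18-fold difference, with ratios of 0.61, 3.36 and 1.04.

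Pdia6, a disulfide isomerase that also binds the sensor IRE1, read 9.57, 10.10 and 9.69 in replicating cells and 8.45, 6.66 and 9.21 in quiescent cells. The groups did not overlap, and the ratio was largest in preparation 2 (1.12, 3.44 and 0.48). It rose by 1.68 ± 0.64 (limma adjusted p 0.475), or 3.20-fold. Pdia3, which works with the lectin chaperones on glycoproteins, read 11.45, 11.21 and 11.66 against 10.59, 8.33 and 11.09 (probe at chr3:108236022-108236081 of rn4, plus strand). Here too all replicating arrays were above all quiescent arrays, with ratios of 0.86, 2.88 and 0.57. The rise was 1.44 ± 0.54 (limma adjusted p 0.475), or 2.71-fold. Without preparation 2 the log2 ratios of P4hb, Pdia6 and Pdia3 were 0.82, 0.80 and 0.71, and none passed.

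Both other isomerases had ratios above 0 in every preparation without passing. Pdia4, another disulfide isomerase, had log2 ratios of 0.54, 0.89 and 0.63 and a fitted ratio of 0.68 ± 0.31 (limma adjusted p 0.475), with groups that did not overlap. Txndc5, a thioredoxin-domain enzyme, read 11.90, 12.20 and 12.29 against 11.42, 9.88 and 11.86. Its replicating arrays were all above its quiescent ones, with ratios of 0.48, 2.32 and 0.43 and a fitted ratio of 1.08 ± 0.49 that did not pass (limma adjusted p 0.475), and its other probe gave -0.17. The oxidases that recharge these enzymes did not share the pattern. Ero1l had ratios of 0.67, 0.44 and -0.66, and Ero1lb, the form enriched in the pancreas, had -0.18, 0.03 and -1.12. The second probe of Ero1lb gave 1.08, with 3.16 in preparation 2, so the probes of this gene disagreed.

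**Figure D4:**
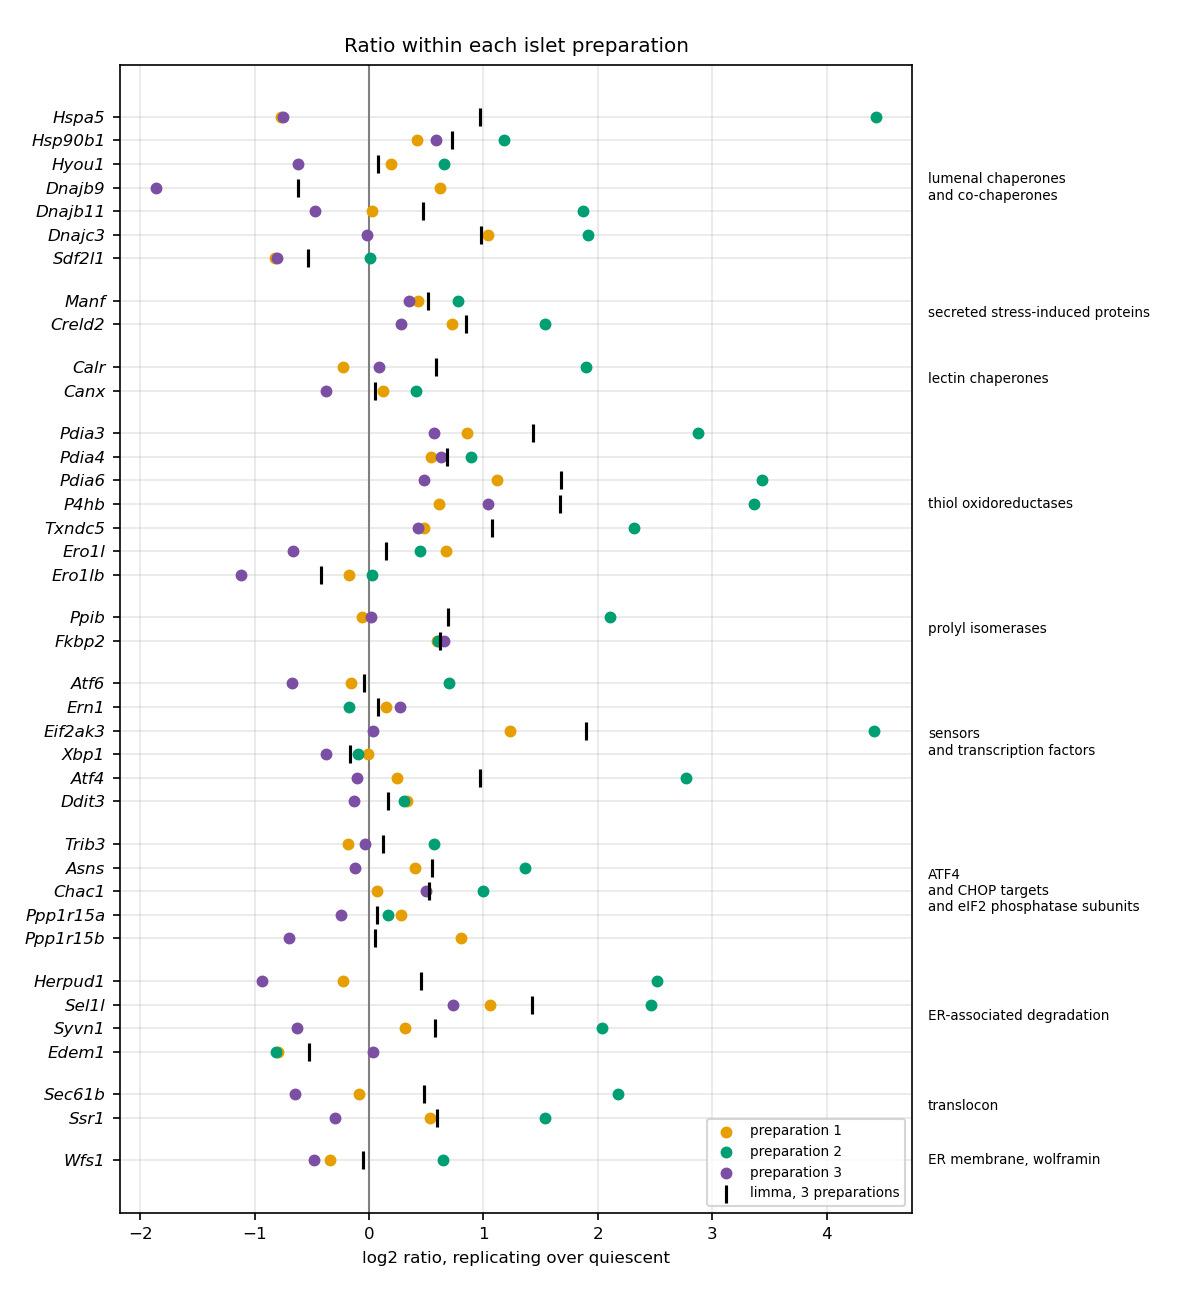
Log2 ratio of replicating over quiescent cells for each member within preparations 1, 2 and 3 (coloured dots) and from limma over the 3 preparations (black bar), with 0 marked by a grey line. For 29 of 36 genes the largest ratio is that of preparation 2, whereas Fkbp2 and Pdia4 have 3 dots close together above 0.

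Among the lumenal chaperones 0 of 7 passed in limma (0 at an unadjusted p under 0.05), and the median log2 ratio was 0.47. Hspa5 encodes BiP, the main chaperone of the ER lumen and the protein that holds the sensors inactive; its ERSE is shown above. It read 11.16, 10.81 and 11.77 on the replicating arrays and 11.93, 6.38 and 12.52 on the quiescent arrays. The replicating arrays lay below quiescent arrays 1 and 3 and far above quiescent array 2, so the ratios were -0.77, 4.43 and -0.75. The fitted ratio of 0.97 ± 1.12 did not pass (limma adjusted p 0.681), and without preparation 2 it was -0.76. On quiescent array 2 Hspa5 was 5.85 log2 units below the mean of the other 2 quiescent arrays. Without that array and without the block its ratio was -0.98, just short of the size needed to pass although its unadjusted p was under 0.05.

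Hsp90b1, the ER form of HSP90 and the gene with a pair of ERSE matches, read 13.69, 13.66 and 14.02 in replicating cells and 13.28, 12.48 and 13.43 in quiescent cells. The groups did not overlap, and the ratio was above 0 in each preparation (0.42, 1.18 and 0.59). The fitted ratio was 0.73 ± 0.33 and did not pass (limma adjusted p 0.475). Dnajc3, a co-chaperone of BiP that also restrains PERK, had ratios of 1.04, 1.92 and -0.01, with a fitted 0.98 ± 0.46 (limma adjusted p 0.475). Dnajb11, another BiP co-chaperone, had 0.02, 1.87 and -0.48. Hyou1, the nucleotide exchange factor of BiP, had 0.19, 0.65 and -0.62.

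The remaining co-chaperones had fitted ratios below 0. Sdf2l1, found in a complex with ER co-chaperones, read 12.43, 12.57 and 12.93 against 13.25, 12.56 and 13.73. It was lower in replicating cells in preparations 1 and 3 and level in preparation 2 (-0.82, 0.01 and -0.80), and its fitted ratio was -0.54 ± 0.35 (limma adjusted p 0.509). Dnajb9, a BiP co-chaperone that restrains IRE1, had ratios of 0.62 and -1.86 in preparations 1 and 3. Its spot on quiescent array 2 was marked as an outlier and left out, so that its fitted ratio of -0.62 rests on the other arrays. Hspa5 and Sdf2l1 were thus lower in preparations 1 and 3, in which Hsp90b1 was higher.

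The secreted proteins Manf, a neurotrophic factor released under ER stress, and Creld2, another gene induced by ER stress, had ratios above 0 in each preparation. Manf read 12.83, 12.74 and 12.81 in replicating cells and 12.40, 11.96 and 12.47 in quiescent cells, without overlap. Its ratios were 0.42, 0.78 and 0.35 and its fitted ratio was 0.52 ± 0.31 (limma adjusted p 0.499). Creld2 had ratios of 0.73, 1.53 and 0.28, with a fitted 0.85 ± 0.38 (limma adjusted p 0.475) and overlapping groups. Its level on quiescent array 2 was low (6.79). Neither Manf nor Creld2 passed. The lectin chaperones, which hold newly made glycoproteins, had fitted ratios of 0.59 (Calr) and 0.05 (Canx). The groups overlapped for both genes, and Calr had -0.22, 1.90 and 0.08 across preparations.

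Fkbp2, a prolyl isomerase of the ER, had the most even ratios across preparations, 0.59, 0.61 and 0.65. It read 14.56, 14.63 and 14.51 on the replicating arrays and 13.96, 14.03 and 13.86 on the quiescent arrays. The groups did not overlap, and quiescent array 2 was not the lowest. With a fitted log2 ratio of 0.62 ± 0.30 (1.53-fold, limma adjusted p 0.475) it stayed under the size needed to pass, and without preparation 2 the ratio was 0.62. Ppib, cyclophilin B, had -0.06, 2.11 and 0.02.

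None of the 6 sensors and transcription factors passed in limma (0 at an unadjusted p under 0.05), and their median log2 ratio was 0.13. Eif2ak3 (PERK) had the highest fitted ratio of the 38 members. It read 11.13, 11.36 and 11.07 in replicating cells and 9.89, 6.95 and 11.03 in quiescent cells. The replicating arrays were close together and above all quiescent arrays, by 1.24, 4.41 and 0.04, the last of these a very small difference. The fitted ratio was 1.90 ± 0.87 (limma adjusted p 0.475). It was 0.64 without preparation 2, and the second probe of the gene gave 0.30.

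Atf6 read 13.85, 13.39 and 14.05 against 14.01, 12.69 and 14.72, with ratios of -0.16, 0.70 and -0.67. The groups overlapped, with a fitted ratio of -0.04 ± 0.39 (limma adjusted p 0.965). The second probe of Atf6 gave -0.44, with ratios of 0.04, -0.61 and -0.75, so its probes differed in sign in preparations 1 and 2. Ern1 (IRE1) read 11.64, 11.96 and 11.41 against 11.48, 12.13 and 11.13, and the ratios of 0.15, -0.18 and 0.27 were small (fitted 0.08 ± 0.31, limma adjusted p 0.916). Its second probe gave 1.07, with 4.09 in preparation 2, so the 2 probes differed most in preparation 2.

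Xbp1, the transcription factor whose mRNA is spliced by IRE1, read 12.72, 12.90 and 12.64 in replicating cells and 12.73, 13.00 and 13.02 in quiescent cells. It was the only member with 3 ratios below 0 (-0.01, -0.10 and -0.38), and they were small. The fitted ratio was -0.16 ± 0.31 (limma adjusted p 0.813), and it was 0.03 when the values were scaled to the 75th percentile in place of quantile normalization. The probe does not report the spliced and unspliced forms apart.

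Atf4, the transcription factor favoured when eIF2 is phosphorylated, read 14.04, 14.08 and 14.18 against 13.80, 11.31 and 14.28. Apart from quiescent array 2 the arrays were close together, and the ratios were 0.24, 2.77 and -0.10. The fitted ratio of 0.97 ± 0.64 did not pass (limma adjusted p 0.512) and was 0.07 without preparation 2. Ddit3, which encodes CHOP, the factor linked to apoptosis under prolonged stress, read 14.84, 15.07 and 14.85 against 14.50, 14.77 and 14.98. The groups overlapped, with ratios of 0.33, 0.31 and -0.13 and a fitted 0.17 ± 0.32 (limma adjusted p 0.809).

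The ATF4 and CHOP targets and eIF2 phosphatase subunits among the members had a median log2 ratio of 0.12. Of these 5 genes 0 passed in limma (0 at an unadjusted p under 0.05). Trib3, a pseudokinase, had a fitted ratio of 0.12, Asns, asparagine synthetase, 0.55, and Chac1, which degrades glutathione, 0.52. Ppp1r15a (GADD34) and Ppp1r15b, the stress-induced and constitutive subunits that direct dephosphorylation of eIF2, had 0.07 and 0.05. The spot of Ppp1r15b on quiescent array 2 was left out as an outlier. Of these, Chac1 alone had 3 ratios above 0 (0.07, 0.99 and 0.50).

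In ER-associated degradation, Sel1l, the adaptor that joins substrate recognition to the ubiquitin ligase HRD1, had the lowest unadjusted p of all members. It read 12.03, 11.94 and 11.66 on the replicating arrays and 10.96, 9.48 and 10.92 on the quiescent arrays (probe at chr6:115431883-115431942 of rn4, minus strand). All replicating arrays were above all quiescent arrays, with group means of 11.88 ± 0.19 and 10.45 ± 0.85 (SD, n = 3). Sel1l rose by 1.42 ± 0.45 (limma adjusted p 0.475), or 2.68-fold, with ratios of 1.06, 2.47 and 0.73. Without preparation 2 it was 0.90 and did not pass.

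Its partner Syvn1, the HRD1 ligase, had ratios of 0.31, 2.04 and -0.63. Herpud1, which recruits substrates to HRD1 and whose window held both ERSE-II and ATF4 elements, had -0.23, 2.51 and -0.93, and its fitted ratio went from 0.45 to -0.58 without preparation 2. Edem1, which directs misfolded glycoproteins to degradation, had -0.80, -0.81 and 0.03 on its brightest probe (fitted -0.52), whereas its other probes gave 0.91 and 1.40. The translocon genes Sec61b and Ssr1 had 0.48 and 0.59, and Wfs1, the ER membrane protein mutated in Wolfram syndrome, had -0.06. None of these passed, and all of their groups overlapped.

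**Figure D5:**
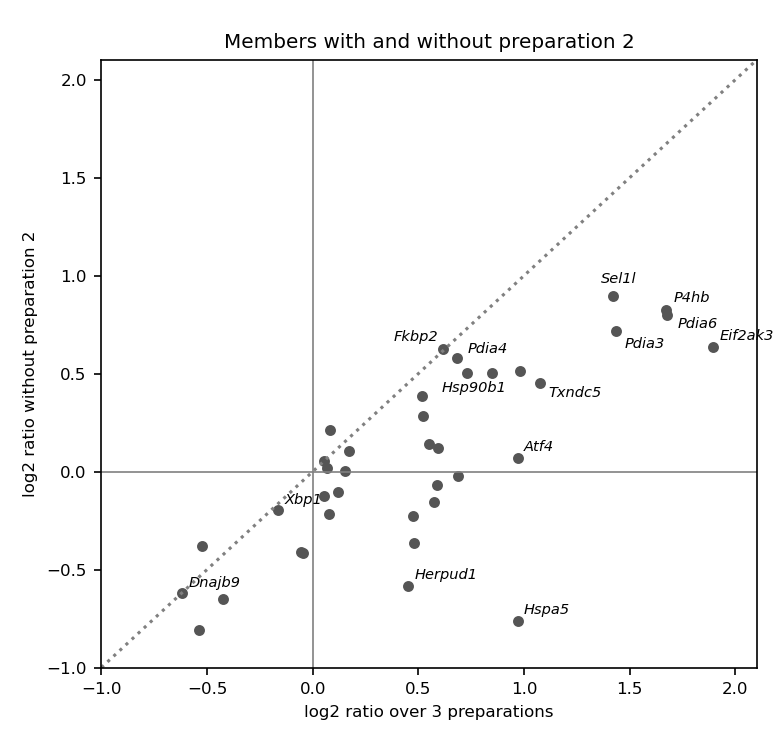
Fitted log2 ratio of each member over the 3 preparations (x axis) against the ratio without preparation 2 (y axis); the dotted line marks equal values. The 4 genes that rose stay above 0 at 0.71 to 0.90, whereas Hspa5 goes from 0.97 to -0.76 and Herpud1 from 0.45 to -0.58.

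The rest of the pathway was described from 148 other genes of ER folding, translocation, degradation, stress signalling, ATF4 targets and ER calcium, of which 145 were on the array. Of these 115 had a ratio above 0 (79.3%), 12 rose (8.28%, against 5.31% of all genes) and 0 fell in limma (0 at an unadjusted p under 0.05). Their median was 0.47, with 0.41, 1.22 and -0.07 in preparations 1 to 3, close to the values of the members. Prdx4, a peroxiredoxin of the ER that feeds oxidising power to the disulfide isomerases, had the largest ratio. It read 9.99, 9.72 and 9.84 in replicating cells and 6.97, 6.56 and 7.91 in quiescent cells. The groups were far apart in each preparation (3.02, 3.16 and 1.93). Prdx4 rose by 2.70 ± 0.39 (limma adjusted p 0.238), or 6.51-fold. It was among the 6 of the 12 that also passed without preparation 2, where 3.17% of all probes passed upwards.

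The shares of these lists that rose are given against 5.31% of all genes. Of the 27 other folding enzymes 3 rose (11.1%). Besides Prdx4 these were Ganab, a subunit of the glucosidase that trims N-glycans (1.69), and the prolyl isomerase Fkbp9 (1.21). In preparations 1 to 3 the ratios were 1.05, 3.21 and 0.82 for Ganab and 1.56, 1.73 and 0.36 for Fkbp9. Of 30 genes of translocation and glycosylation 1 rose (3.33%), Ssr2 (1.97), a subunit of the same complex as Ssr1. Ssr2 had ratios of 1.55, 3.39 and 0.95. Of 23 degradation genes 1 rose (4.35%), Vcp (1.59), the ATPase that extracts substrates from the membrane. Of 24 sensing and signalling genes 2 rose (8.33%), Traf2 (1.53), which couples IRE1 to kinases, and Eif2ak2 (1.29), the eIF2 kinase activated by double-stranded RNA. Of 10 calcium genes 1 rose (10%), the IP3 receptor Itpr1 (1.47).

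The 31 other ATF4 targets held 4 genes that rose (12.9%, against 5.31% of all genes). Phgdh and Psat1 encode consecutive enzymes of serine synthesis. Phgdh read 11.07, 11.02 and 10.98 against 9.22, 8.30 and 10.19, and Psat1 read 12.42, 12.32 and 12.29 against 10.59, 9.15 and 11.53. Both were higher on every replicating array, with fitted ratios of 1.78 ± 0.46 (limma adjusted p 0.475) and 1.91 ± 0.53 (limma adjusted p 0.475). The others were the amino acid transporters Slc3a2 and Slc7a3. Of the wider genes that rose, Ganab, Fkbp9, Vcp, Eif2ak2, Itpr1 and Slc3a2 did not pass without preparation 2. The targets within the 38 members, Trib3, Asns and Chac1, did not pass.

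The sorted cells were checked with marker lists. The β-cell markers Ins1 and Ins2 were well above background on all 6 arrays, with log2 ratios of 0.25 and 0.42 that did not pass. By qPCR the study reported insulin (Ins2) as significantly lower in replicating β-cells, so the array and the qPCR differed in sign. Over the 11 β-cell markers the median was -0.56, with 7 below 0. Of the 11, 1 fell, Mafa by 1.01, and the same selection was passed downwards by 3.11% of all genes. In 5 of the 11 every replicating array was below every quiescent array (against 6.63% of all genes). The 8 cell-cycle genes all rose (median 3.69), among them Top2a (3.76 in limma). Markers of other cells moved with the groups as well. Fibroblast and stellate markers rose in 6 of 16, and their mean log2 intensity was 9.93, 8.77 and 9.77 on the replicating arrays against 8.24, 8.28 and 8.34 on the quiescent arrays. Col3a1 had ratios of 3.22, 2.08 and 3.81. Gcg of α-cells (2.39), Sst of δ-cells (1.74) and Ppy of PP cells (1.21) rose too, and alpha cell markers rose in 2 of 10. Acinar markers, of a cell rich in ER, had a median of 0.10, with mean levels of 8.40, 10.16 and 9.51 against 8.29, 9.78 and 9.60. They were higher in preparations 2 and 3 in both groups. Of them 1 of 14 rose, Prss1 (1.56). Duct markers rose in 2 of 7, with a median of -0.23, immune markers in 3 of 13 and endothelial markers in 0 of 8, against 5.31% of all genes. The part of these cells in the ratios of the ER genes was not tested.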

How the data were processed

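Total RNA of sorted β-cells was amplified, labelled with Cy3 and hybridised to Agilent rat 60-mer arrays by the authors, who deposited the scanner intensity of each spot, read with Feature Extraction 10.7.3.1, and normalised log2 values. These had been corrected for background with normexp and quantile normalised between arrays, and they were used here as deposited. They differed from normexp (offset 50) and quantile values computed from the deposited intensity values by at most 0.116. Control spots were left out, outlier-marked spots were treated as missing (252 to 1583 per array), no spot was saturated, and spots of a probe were averaged. The share of probes well above background was 80.8% to 98.5% per array, and the 38 selected probes were above it on all 6 arrays. The highest share was that of quiescent array 2, where this mark separated few probes. There it was given to the second Canx probe at 5.97, which lacked it on every replicating array. Hspa5 (6.38), Ero1l (6.53), Pdia6 (6.66), Creld2 (6.79) and Eif2ak3 (6.95) lay little above that level on quiescent array 2. The ratios of these genes in preparation 2 therefore rest on low values. The number of arrays limits the precision.

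Genes were matched by the gene name in the array files, whose probe positions are on rn4; the annotation of that build was not used here. limma 3.58.1 in R 4.3.3 (lmFit and eBayes) was fitted to all 45598 probes as a paired design by islet preparation, following the study, and p was adjusted by Benjamini-Hochberg over all probes. To pass, a probe needed an unadjusted p not above 0.05 together with a log2 ratio of 1 or more in either direction. The study's methods pair the samples by preparation, which are separate islet isolations. The sample titles give only a group and a replicate number. Samples with the same number were taken as 1 preparation. Across probes, the deviation from the group mean correlated between the 2 arrays of a preparation at 0.0561, 0.242 and 0.258. The members and gene lists were chosen with earlier results of these data known. All members are named, with values per array for those that passed, those with 3 ratios of 1 sign and an absolute ratio of at least 1, and the sensors, transcription factors and Hspa5. Values per array of Hsp90b1, Sdf2l1, Manf and Fkbp2 were added after their values were seen. Of the other lists, up to 2 genes per direction with the smallest p are given, and Fkbp9, Slc3a2, Slc7a3 and Mafa were added. Mogs, Derl2 and Selenon of the wider lists had no probe under that name.

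In simulated data (44652 probes, replicating against quiescent), 88% of 100 probes changed by a log2 of 2 and 96% of 100 changed by 3 passed, as did 2.85% of the unchanged probes. The simulated noise had the same SD on all arrays of a probe and was independent between probes. It held no array that stood apart as quiescent array 2 did, so these rates cannot be carried over to the members. Alternatives were other background corrections and scalings, a filter on dim probes, outlier spots kept, an unpaired fit (no block), a mean-variance trend, gene medians over probes, and each preparation left out. Protein sequences were not analysed here. The sequence of 1 promoter match is not reported here.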

Additional observations from a re-analysis of the deposited data

How the results depend on the processing

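None of the 4 members that rose changed its sign under the alternatives. The median log2 ratio of the members was 0.20 with cyclic loess and 0.04 to 0.80 when 1 preparation was left out. Of 4 members that rose, 0 passed with the processed signal scaled to the 75th percentile and 2 (Pdia6 and Sel1l) in the fit without the replicate block. With 1 preparation left out, the number was 0 (without preparation 2), 1 (without preparation 1, P4hb) or 5 (without preparation 3, with Eif2ak3 and Dnajc3 added and P4hb lost). It was 0 without quiescent array 2, an alternative chosen after seeing the data. Eif2ak3 passed with a variance trend, with cyclic loess and with 75th percentile scaling of the normexp values. The wider genes that rose were 12 of 145 by the reported fit, 5 with the processed signal and 6 without quiescent array 2. They were 2, 6 and 33 without preparation 1, 2 and 3. Over all probes the share passing upwards changed too. It was 4.44% in the reported fit and 1.14%, 3.17% and 11.2% without preparation 1, 2 and 3. With the processed signal it was 1.45%, without the replicate block 4.12% and without quiescent array 2 3.07%. The wider genes that fell, 0 by the reported fit, were 1 with 75th percentile scaling, 2 with cyclic loess, 1 with outlier spots kept, 1 without the replicate block, 0 to 3 with 1 preparation left out and 1 without quiescent array 2. Scaling to the 75th percentile moved the median of all probes from -0.07 to -0.71 (processed signal) or -0.39 (normexp), and the probes passing upwards and downwards from 2023 and 1905 to 662 and 3193 or 1596 and 5862, while the members' medians were 0.39 and 0.36. At an adjusted p under 0.05, 0 members passed in any alternative, although up to 719 probes did. The cause of these differences was not tested. The number of preparations, 3, limited the precision. The standard errors of 0.30 to 1.12 are those of limma, which moderates the variance of each probe with that of all probes. They are therefore not the spread of the 3 ratios of a gene, as Fkbp2 shows (0.59, 0.61 and 0.65, standard error 0.30). With such errors the test could not show small ratios, and a p that missed the threshold does not show equal levels.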

Other observations

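Of the 21 genes with an ERSE in their promoter window, 8 were members, 1 was in the wider lists and 12 in neither. Derl3, a component of ER-associated degradation, had ratios of -0.96, -1.23 and -0.06 in preparations 1 to 3. Zfand2a, which encodes a proteasome-associated zinc finger protein, had 0.54, 1.81 and 0.19, and Zfp57, a zinc finger protein, rose by 1.18 in limma at the same selection. The genes named here were chosen after their values were seen.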
